A study of Xenopus tropicalis with 24 samples.

Results

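The T3 response of tail was set against the T3 response of intestine in Xenopus tropicalis tadpoles labelled TRDKO, animals without thyroid hormone receptor per the series' design text. T3 is the active thyroid hormone. For each gene the log2 fold change of T3 over control in intestine was subtracted from that in tail. A positive organ difference therefore means that the change with T3 was more upward in tail. The contrast used 12 of the 24 RNA libraries of the series, 3 in each of 4 groups: TRDKO tail with T3, TRDKO tail control, TRDKO intestine with T3 and TRDKO intestine control. The tadpoles were at stage 54 and were held at 25 °C for 18 h with 5 nM T3 or with no treatment. The other 12 libraries came from wild-type (WT) tadpoles in the same organs and treatments. Genes entered the test where the mean reached 1 CPM, a count scaled to library size, in at least 1 group of each organ, which left 13202 of 26531 genes. The labels give neither the lesions carried by TRDKO animals nor whether replicates were separate animals or pools, so a p-value reflects no more than the variation among these libraries, possibly a technical one.

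Thyroid hormone drives amphibian metamorphosis through nuclear receptors that sit on target genes together with RXR partners, repress them without hormone and activate them when T3 binds. The same hormone has different outcomes by organ: the tail, with its muscle, notochord and skin, is resorbed, while the larval epithelium of the intestine dies and is replaced from stem cells. T3 is also taken up by membrane transporters, activated or inactivated by deiodinases, and reported to act outside the nucleus.

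Totals ranged from 17577407 to 24660388 counts per TRDKO library, and 17918 to 19655 genes had a count. CPM values below are counts after TMM scaling (trimmed mean of M values), relative to the total in the kept genes. The organ labels could be read from defining markers. The muscle creatine kinase gene ckm stood at 6474 to 7366 CPM in tail and 1.103 to 2.336 CPM in intestine, and tp63, an epidermal factor, at 139.1 to 149.6 CPM in tail and 0 to 0.0739 CPM in intestine. Not every epidermal marker separated the organs: dsc3 stood at 42.7 to 60.4 CPM in tail and 28.3 to 57.3 CPM in intestine. The enterocyte fatty acid carrier fabp2 stood at 0.707 to 20.6 CPM in tail and 1622 to 2521 CPM in intestine. The adult muscle myosin gene myh4 was at 0 to 0.855 CPM in every library of both organs.

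TRDKO intestine T3 replicate 3 stood apart from the other libraries of its group. Its mean chi-square per gene was 22.8 against replicate 1 and 27.6 against replicate 2, where all other pairs of the same TRDKO group lay between 1.05 and 2.15. It lay over 1.5-fold from the other replicates at 1533 genes, against 201 genes between replicates 1 and 2. The difference moved with gene length: its median was 0.31 log2 in the shortest of 4 equal groups of genes by exon length, then 0.12 and -0.04, and -0.30 in the longest. Genes of cytosolic ribosomal proteins were 0.48 higher there in the median, oxidative phosphorylation subunits 0.45 higher, and collagens and matrix proteins 0.30 lower (log2 difference -0.30). With it the biological coefficient of variation was 6.08%, and without it 1.85%. Counts of organ differences are therefore given with and without this library, and so are each organ's own counts where they moved by over 1.5 times.

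The T3 change differed between the organs at 4394 genes, 33.3% of those tested, by edgeR's quasi-likelihood F test at an adjusted p under 0.05. It was more upward in tail at 1953 genes (14.8%) and more downward in tail at 2441 genes (18.5%), and the median organ difference over all genes was -0.03 log2. A difference of at least 2-fold was called at 318 genes upward (2.41%) and 489 genes downward (3.70%). Without TRDKO intestine T3 replicate 3 the calls numbered 7048 (53.4%), with 3946 upward (29.9%) and 3102 downward (23.5%). Of the 4394 genes, 4176 were called in both fits, all with the same sign. The split by direction depended on scaling: 44.5% of calls were upward here, 56.0% without that library and 75.2% when only library totals were used, where the median of all genes stood at 0.16. The split was not particular to that library. Upward calls were also 56.6% to 57.3% when intestine T3 replicate 1 or 2, or intestine control replicate 1 or 2, was left out.

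Each organ's own T3 test called many genes in both directions. In tail, T3 changed 4674 genes (35.4%), of which 1803 rose (13.7%) and 2871 fell (21.7%). In intestine it changed 5762 genes (43.6%), of which 2957 rose (22.4%) and 2805 fell (21.2%). With TRDKO intestine T3 replicate 3 left out, which enters both tests through spread and scaling, tail had 7453 calls (56.5%), of which 3749 rose (28.4%) and 3704 fell (28.1%). Intestine then had 8261 calls (62.6%), of which 3846 rose (29.1%) and 4415 fell (33.4%). The median tail change moved from -0.05 to 0.001 log2 in that fit, though no tail library was left out. It was also 0.001 without intestine T3 replicate 1 or 2, or without intestine control replicate 1 or 2. Among the genes with an organ difference, 256 rose in tail and fell in intestine (1.94% of genes tested, median log2 changes 0.37 and -0.39), and 598 fell in tail and rose in intestine (4.53%, medians -0.36 and 0.42). Without TRDKO intestine T3 replicate 3 each of these opposite classes held 866 genes. Both organs rose at a further 226 genes with an organ difference, 76 of them more in tail and 150 more in intestine, and both fell at 393, with 72 falling more in tail and 321 more in intestine. Without that library these 4 classes held 172, 470, 173 and 734 genes in the same order. A change in the same direction in both organs with no organ difference was called at 468 genes that rose and 746 that fell, and without that library at 901 and 893. The plot of tail against intestine changes shows these classes.

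**Figure D1:**
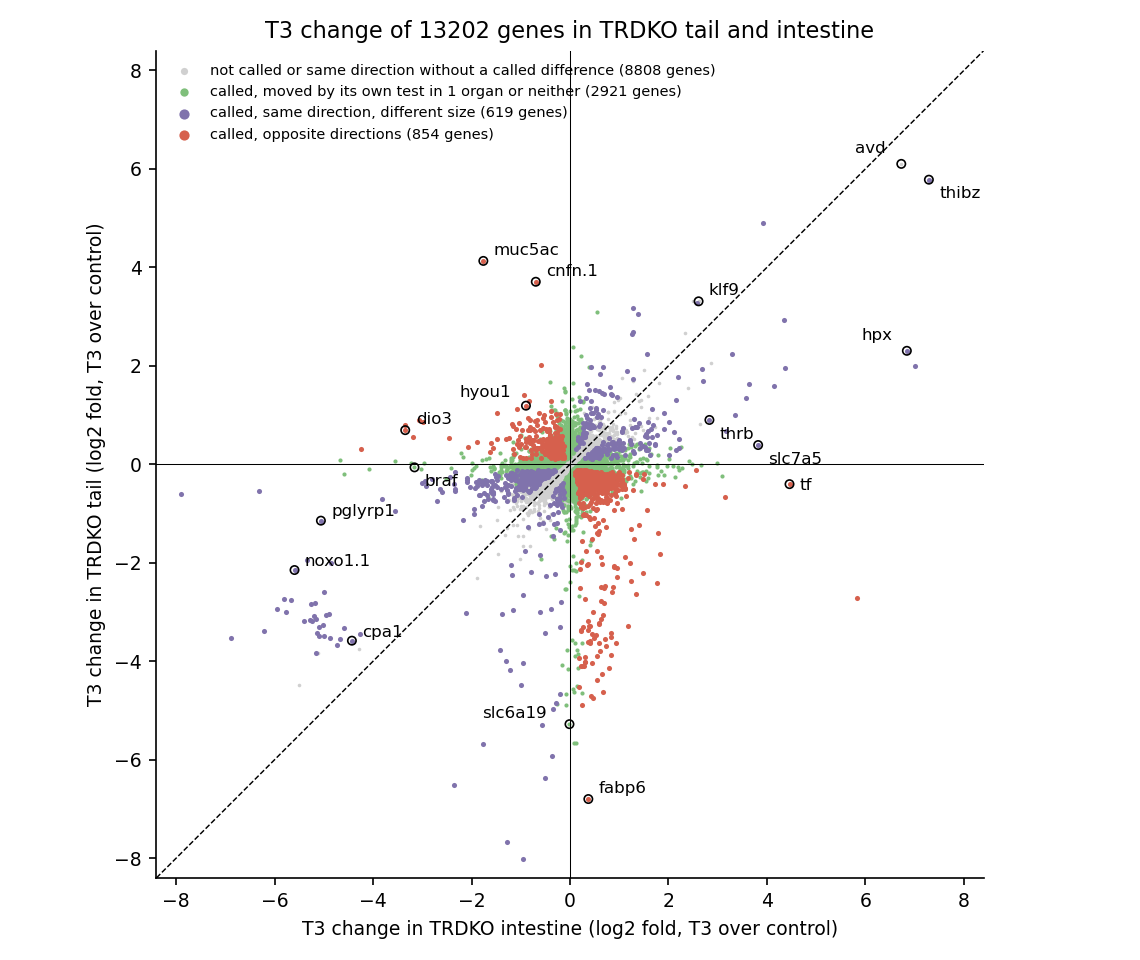
Log2 fold change of T3 over control in TRDKO tail (vertical axis) against TRDKO intestine (horizontal axis), 1 point for each of 13202 genes. Colours mark genes that moved in opposite directions (854 genes), genes that moved in the same direction by different amounts (619 genes), other genes with an organ difference (2921 genes) and genes with none (8808 genes), and the dashed diagonal marks equal change in both organs.

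The receptor genes were read first. A small deletion can leave a transcript countable, so their counts do not check the genotype. The beta receptor gene thrb, on chromosome 6 from 46687270 to 46933187 (minus strand, build XENTR_10.0 per the file header), is itself a T3 target in WT tadpoles. It stood at 54.1, 53.8 and 56.8 CPM in tail T3 and 30.6, 27.9 and 29.6 CPM in tail control, against 42.0, 46.3 and 31.0 CPM in intestine T3 and 5.37, 6.095 and 5.44 CPM in intestine control. T3 and control libraries did not overlap in either organ, and the rise was larger in intestine, with an organ difference of -1.93 ± 0.17 log2 (SE, n = 3 libraries per group, edgeR adjusted p = 2.31e-06). The alpha receptor gene thra, on chromosome 10 from 9063035 to 9190651, stood at 10.8, 12.4 and 10.1 CPM in tail T3 and 9.69, 7.38 and 8.08 CPM in tail control, against 13.8, 16.3 and 4.07 CPM in intestine T3 and 5.60, 6.04 and 5.44 CPM in intestine control. The lowest intestine T3 value is that of replicate 3, which lies under all 3 controls. The organ difference of thra was -0.65 ± 0.44 with an edgeR adjusted p of 0.289, and -0.94 with an edgeR adjusted p of 4.32e-08 without that library.

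Most genes known to respond to T3 rose in both organs, and 12 of 21 had a T3 change less upward in tail. Of the 25 listed genes in the table, 21 were tested: in tail 14 rose and 1 fell (median change 0.52), and in intestine 17 rose and 2 fell (median change 0.70). The shares called were 71.4% in tail and 90.5% in intestine, against 35.4% and 43.6% of all genes. The organ difference was called upward at 4 and downward at 12 of the 21 (76.2% against 33.3% of all genes), with a median of -0.34. Without TRDKO intestine T3 replicate 3 it was called upward at 6 and downward at 12 (85.7% against 53.4%). The transcription factor gene thibz, on chromosome 3 from 140193605 to 140202878, stood at 27.99, 30.2 and 30.2 CPM in tail T3 and 0.514, 0.645 and 0.427 CPM in tail control, against 35.2, 33.4 and 30.3 CPM in intestine T3 and 0.136, 0.228 and 0.267 CPM in intestine control. Its T3 levels were alike in both organs while its control level was lower in intestine, and the organ difference was -1.51 ± 0.36. All control libraries lay under 1 CPM, so thibz entered the test through the T3 libraries alone and a rise was a condition of entry. The organ difference rests on these low control levels. The stromelysin gene mmp11, a matrix protease of remodelling tissue, rose by 1.62 log2 in tail and 3.65 log2 in intestine, and the factors nfib and nfic by 0.52 and 1.31 in tail against 2.21 and 2.15 in intestine.

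The zinc finger factor klf9, a direct T3 target in frogs, stood at 16.7, 18.0 and 18.6 CPM in tail T3 and 2.14, 1.52 and 1.66 CPM in tail control, against 69.6, 71.1 and 25.4 CPM in intestine T3 and 9.89, 9.11 and 8.37 CPM in intestine control. It rose in both organs, and intestine T3 replicate 3 was the low value of its group. No organ difference was called with all 12 libraries (0.70 ± 0.55, edgeR adjusted p = 0.369), and 0.44 was called without that library (edgeR adjusted p = 0.0102). The factor gene cebpd rose in both organs and more in tail, by 1.01 against 0.57, as did fap, a stromal protease gene, by 1.11 against 0.68.

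Genes that handle thyroid hormone itself moved in both directions. The deiodinase gene dio3, whose enzyme inactivates thyroid hormone, lies on chromosome 8 from 97238054 to 97239535 (plus strand). It stood at 243.6, 231.5 and 241.7 CPM in tail T3 and 147.2, 156.3 and 139.7 CPM in tail control, against 0.6003, 0.682 and 0.665 CPM in intestine T3 and 6.91, 7.18 and 5.92 CPM in intestine control. It rose in tail and fell in intestine with an organ difference of 4.04 ± 0.16 (edgeR adjusted p = 1.1e-09). All intestine T3 libraries lay under 1 CPM, so dio3 passed the intestine filter through the controls alone. A fall there was a condition of entry. In WT the organ difference of dio3 was -2.06, and its summed intestine counts were 75 with T3 and 4 in control, against 32 and 390 in TRDKO. The cause was not tested. The activating deiodinase gene dio2 rose in intestine by 1.04 and changed by 0.18 in tail, which did not pass. The transporter gene slc7a5, the light chain of an amino acid carrier that also takes up T3, stood at 17.4, 15.8 and 15.1 CPM in tail T3 and 12.1, 11.7 and 13.1 CPM in tail control, against 51.5, 52.9 and 44.5 CPM in intestine T3 and 4.06, 2.79 and 3.57 CPM in intestine control. Its rise was small in tail and large in intestine, with an organ difference of -3.43 ± 0.15 (edgeR adjusted p = 3.45e-09). Its heavy chain partner slc3a2 went the other way, rising by 1.44 in tail and 0.83 in intestine. Of 13 tested genes of hormone metabolism and transport, 3 differed upward and 6 downward (69.2% against 33.3% of all genes). Their median was -0.49. Without TRDKO intestine T3 replicate 3, 3 differed upward and 8 downward (84.6% against 53.4%).

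Many genes of the endoplasmic reticulum chaperones rose in tail and fell in intestine. Of 31 tested genes of the unfolded protein response, the programme that raises folding capacity in that compartment, 20 rose and 2 fell in tail, and 5 rose and 16 fell in intestine. That was 71.0% called in tail and 67.7% in intestine, against 35.4% and 43.6% of all genes. Between organs, 17 genes were called upward and 3 downward (median 0.33), 64.5% against 33.3% of all genes, and 12 genes moved in opposite directions. Without TRDKO intestine T3 replicate 3, 23 were called upward and 3 downward, 83.9% against 53.4%. In that fit 22 rose and 4 fell in tail (83.9% against 56.5%) and 5 rose and 23 fell in intestine (90.3% against 62.6%). The chaperone gene hyou1, on chromosome 7 from 81027606 to 81058703 (plus strand), stood at 15.4, 13.4 and 14.8 CPM in tail T3 and 6.51, 6.04 and 6.55 CPM in tail control, against 10.98, 11.9 and 9.46 CPM in intestine T3 and 18.8, 21.3 and 20.5 CPM in intestine control. No T3 library overlapped a control library in either organ, and the organ difference was 2.09 ± 0.13 (edgeR adjusted p = 6.03e-08). The master chaperone gene hspa5 stood at 95.1, 96.7 and 96.3 CPM in tail T3 and 59.2, 57.1 and 61.3 CPM in tail control, against 101.3, 99.6 and 117.7 CPM in intestine T3 and 191.0, 192.1 and 193.1 CPM in intestine control. It rose by 0.70 in tail and fell by 0.86 in intestine. The chaperones hsp90b1 and calr, the stress-induced factor manf and the disulfide-forming oxidase ero1a followed, with organ differences of 1.48, 1.34, 1.79 and 1.59.

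Genes of the list other than chaperones differed among themselves. The stress factor gene ddit3 rose in tail by 0.75 and did not pass in intestine (-0.14), with an organ difference of 0.90, and herpud1, which acts in degradation of misfolded proteins, rose in tail by 0.26 and did not pass in intestine (-0.0032), with a difference of 0.27. The glutathione-degrading gene chac1, a late target of the stress factor ATF4 in mammals, rose in both organs, by 2.24 in tail and 1.56 in intestine, a difference of 0.68. The asparagine synthetase gene asns stood at 5.41, 5.01 and 5.86 CPM in tail T3 and 12.3, 12.2 and 13.8 CPM in tail control, against 124.1, 125.3 and 161.5 CPM in intestine T3 and 126.4, 125.8 and 128.1 CPM in intestine control. It fell in tail, did not pass in intestine, and had an organ difference of -1.34 ± 0.15.

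Most mitosis genes moved the other way, falling in tail and rising in intestine. Of 52 tested genes of chromosome segregation and division, 36 fell and 0 rose in tail (median change -0.29), while 52 rose and 0 fell in intestine (median change 0.72). These were 69.2% and 100% of the list, against 35.4% and 43.6% of all genes. Between organs, 49 were called downward and 0 upward (94.2% against 33.3% of all genes). The median was -1.0, and 36 genes moved in opposite directions. Without TRDKO intestine T3 replicate 3, 48 were called downward and 0 upward, 92.3% against 53.4%. In that fit 37 fell and 2 rose in tail and 50 rose and 0 fell in intestine. The kinase gene cdk1, which drives entry into mitosis, stood at 42.8, 41.7 and 40.4 CPM in tail T3 and 52.5, 57.6 and 54.1 CPM in tail control, against 70.5, 72.1 and 84.8 CPM in intestine T3 and 45.2, 46.7 and 45.7 CPM in intestine control. T3 libraries lay under all controls in tail and above all controls in intestine, and the organ difference was -1.12 ± 0.09 (edgeR adjusted p = 1.17e-06). The spindle motor gene kif2c had the largest difference of the list (-1.50 ± 0.13), followed by the checkpoint kinase bub1 (-1.33) and the DNA topoisomerase top2a (-1.33). Summed over the 54 listed genes in the table, the level was 925.3 ± 1.15 CPM in tail T3 and 1139 ± 4.71 CPM in tail control, against 1164 ± 17.7 CPM in intestine T3 and 734.6 ± 5.50 CPM in intestine control (SD, n = 3 each). In bulk RNA fewer cells of a kind and less RNA per cell cannot be told apart.

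DNA replication genes, which act earlier in the cell cycle, were called at no higher a share than all genes. Of 48 tested genes 7 were called upward and 6 downward, 27.1% against 33.3% of all genes, and 9 upward and 4 downward without TRDKO intestine T3 replicate 3, 27.1% against 53.4%. The median of -0.06 turned positive when library totals alone were used (0.14) and when intestine T3 replicate 3 (0.05), intestine control replicate 1 (0.04) or intestine control replicate 2 (0.01) was left out. The helicase subunits mcm2 and mcm4 were among the upward calls (0.59 and 0.56) and cdc45, another part of the replicative helicase, among the downward calls (-0.75).

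Most ribosome biogenesis genes rose in tail, and few rose in intestine. Of 59 tested genes, 46 rose and 1 fell in tail (median change 0.44), while 2 rose and 14 fell in intestine (median change -0.09). Calls made up 79.7% in tail against 35.4% of all genes. In intestine the share was 27.1%, below the 43.6% of all genes. The organ difference was called upward at 45 and downward at 0 (76.3% against 33.3% of all genes), with a median of 0.54. It was called upward at 57 and downward at 0 without TRDKO intestine T3 replicate 3 (96.6% against 53.4%). Without that library 52 rose and 2 fell in tail (91.5% against 56.5%). In intestine 0 then rose and 31 fell (52.5%, below the 62.6% of all genes). The small-subunit processing factor gene wdr75, on chromosome 9 from 47864524 to 47908492 (minus strand), stood at 20.4, 22.1 and 21.04 CPM in tail T3 and 10.7, 10.2 and 10.5 CPM in tail control, against 10.4, 10.7 and 8.57 CPM in intestine T3 and 12.7, 11.6 and 12.05 CPM in intestine control. The tail T3 libraries stood above all other libraries, and the organ difference was 1.30 ± 0.11 (edgeR adjusted p = 1.48e-06). The rRNA methyltransferase gene fbl had a difference of 0.75 ± 0.10 and urb2, another assembly factor, 1.47 ± 0.18. The abundant nucleolar genes ncl (0.03) and npm1 (-0.17) did not pass. The genes of the ribosomal proteins themselves gave 0 calls of 73 (0% against 33.3% of all genes), with a median of -0.29. Without the same library, in which their level was high, 0 were called upward and 4 downward (5.48% against 53.4%). Their own T3 changes were called at 0% in each organ with all libraries. Leaving that library out, 45 fell in tail (61.6% against 56.5% of all genes) and 20 in intestine (27.4% against 62.6%).

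**Figure D2:**
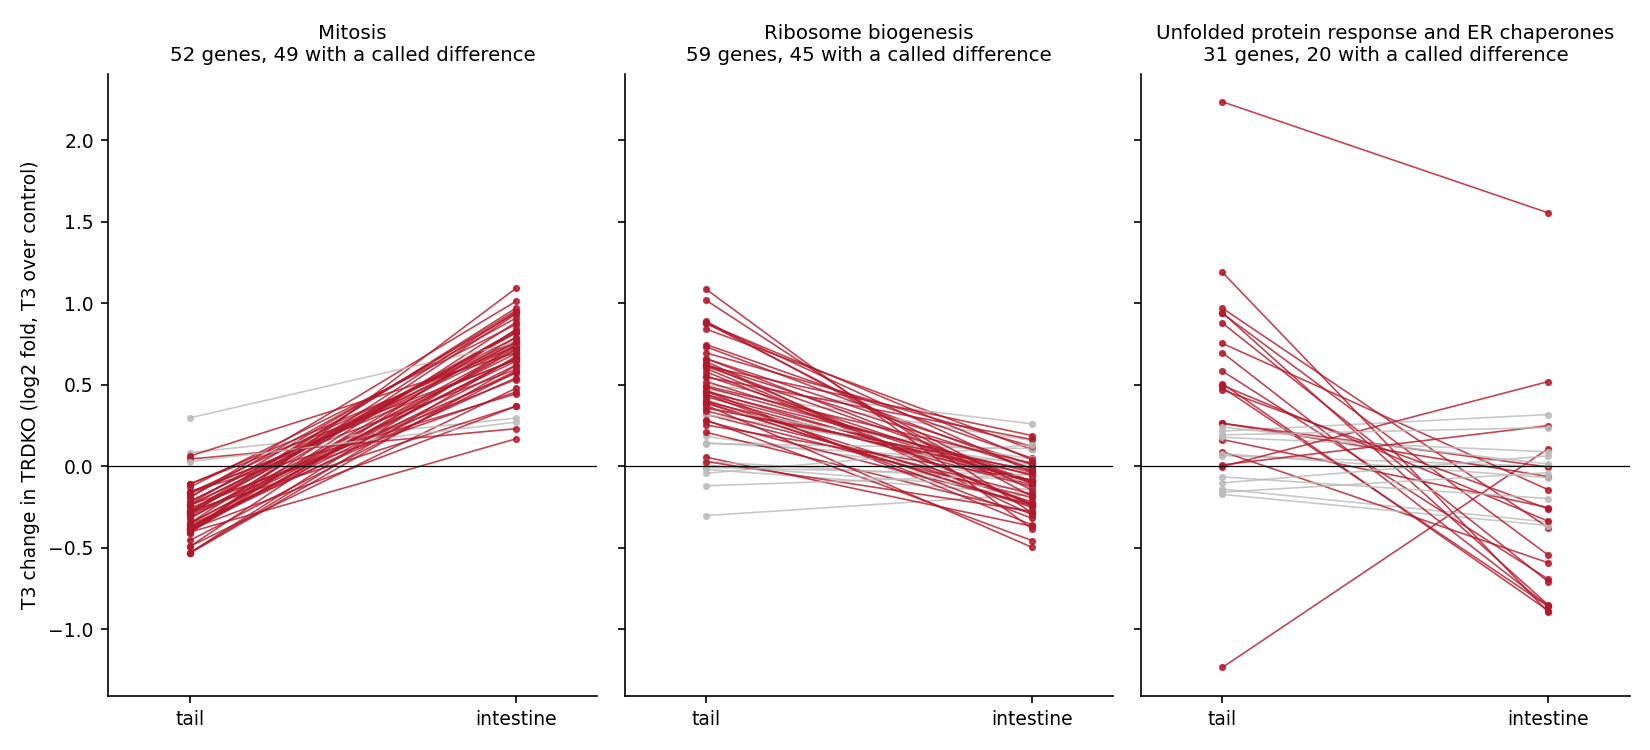
Log2 fold change of T3 over control in TRDKO tail and intestine for each tested gene of 3 lists, joined by a line that is red where the organ difference was called and grey where it was not. Lines of the 52 mitosis genes run upward toward intestine, lines of most of the 59 ribosome biogenesis genes run downward, and those of the 31 unfolded protein response genes run both ways.

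**Figure D3:**
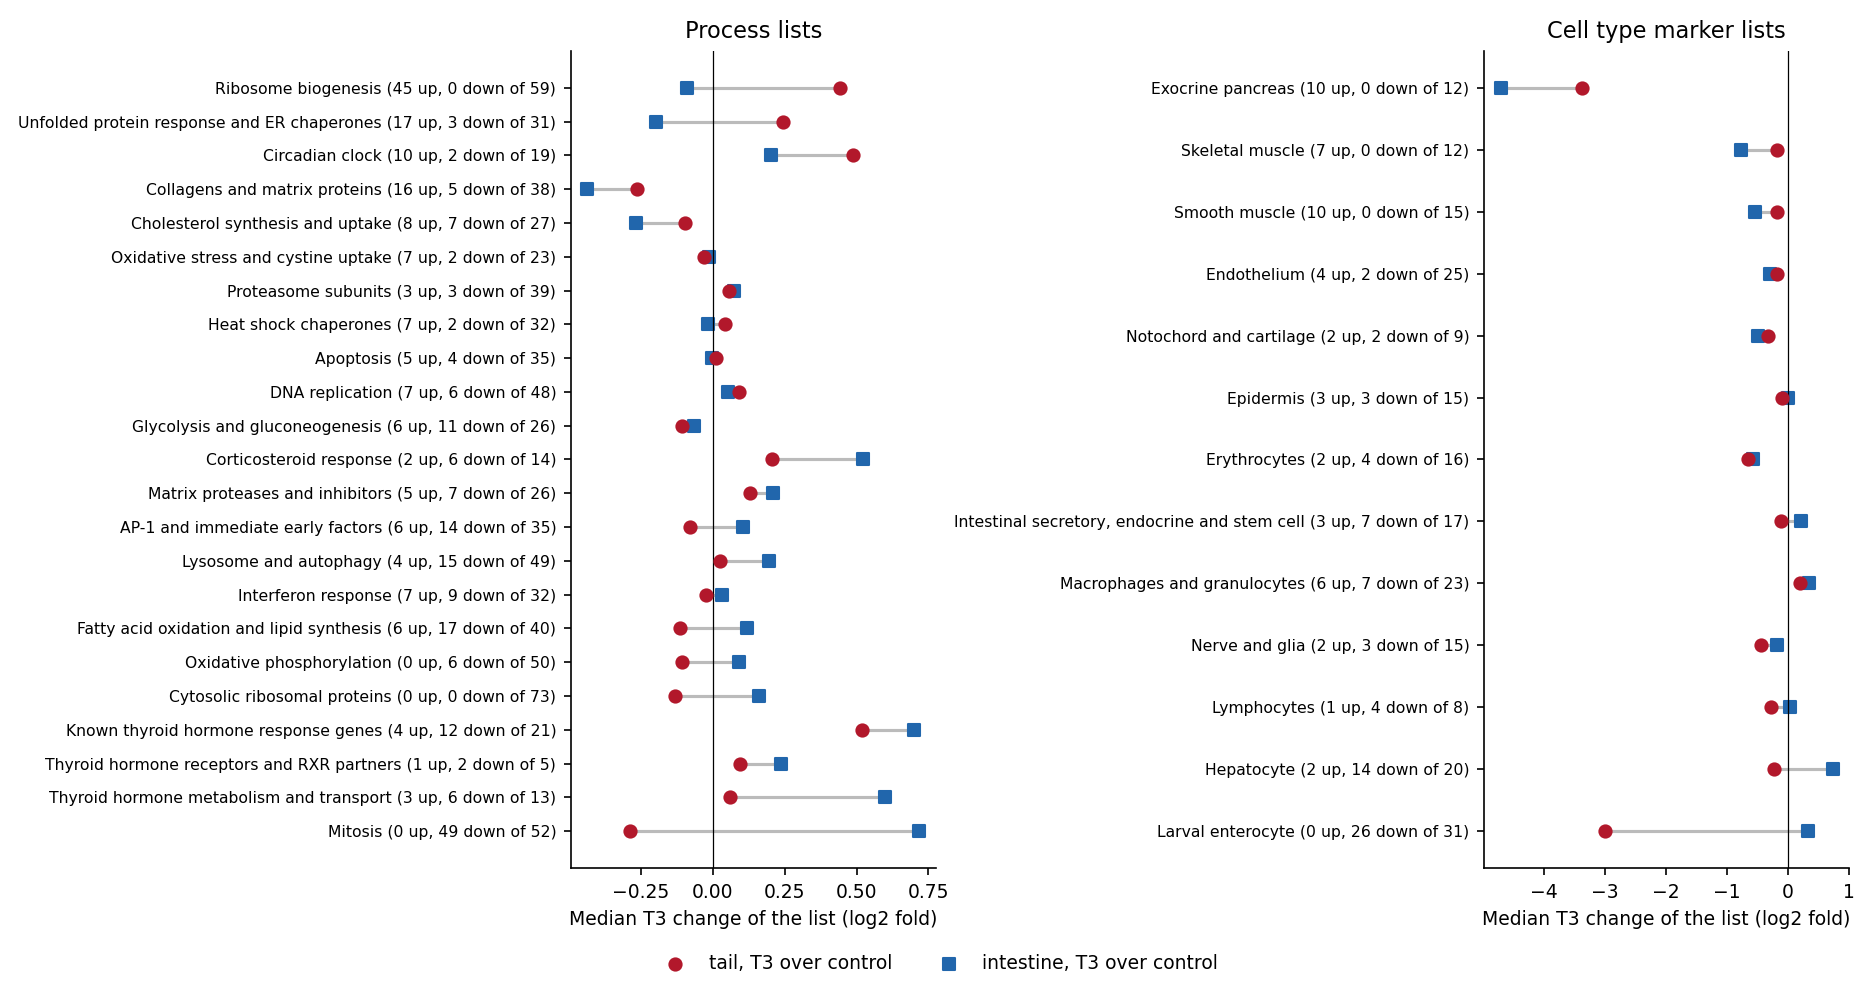
Median log2 fold change of T3 over control of each gene list in TRDKO tail (red circles) and TRDKO intestine (blue squares), for process lists (left) and cell type marker lists (right) from the highest median organ difference at the top to the lowest. The counts after each name are genes called more upward or more downward in tail of those tested; mitosis and larval enterocyte genes stand at the lower end, and ribosome biogenesis and exocrine pancreas genes at the upper end.

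Of the clock genes, about as many rose in each organ, and most called differences were upward in tail. Of 19 tested genes 11 rose and 5 fell in tail (median change 0.49), and 9 rose and 4 fell in intestine (median change 0.20). Calls made up 84.2% in tail and 68.4% in intestine, against 35.4% and 43.6% of all genes. The organ difference was called upward at 10 and downward at 2 (63.2% against 33.3% of all genes), with a median of 0.21. It was called at 10 and 4 without TRDKO intestine T3 replicate 3 (73.7% against 53.4%). The repressor gene per1 stood at 57.0, 56.7 and 56.3 CPM in tail T3 and 33.6, 35.9 and 30.7 CPM in tail control, against 34.7, 34.2 and 30.2 CPM in intestine T3 and 35.7, 32.6 and 31.6 CPM in intestine control. It rose in tail by 0.76, its intestine libraries overlapped (-0.01), and the organ difference was 0.77 ± 0.10. The nuclear receptor nr1d1, a repressor of the clock, rose in both organs, by 1.41 against 0.85, and its target arntl fell in both, by 0.99 against 0.83, with no organ difference called. In tail the clock factor npas2 fell by 1.34, and it did not pass in intestine (0.07).

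Single genes gave larger differences. The mucin gene muc5ac, which encodes a gel-forming secreted glycoprotein, lies on chromosome 4 from 30176719 to 30230320 (minus strand). It stood at 76.0, 76.8 and 78.2 CPM in tail T3 and 4.50, 4.425 and 4.23 CPM in tail control, against 5.16, 6.14 and 3.33 CPM in intestine T3 and 17.3, 18.4 and 15.1 CPM in intestine control. It rose in tail and fell in intestine with no overlap in either, and the organ difference of 5.89 ± 0.18 was the largest upward one among the named genes (edgeR adjusted p = 1.46e-10). The kelch-like gene klhl38, on chromosome 6 from 139900461 to 139908157, stood at 119.6, 123.3 and 118.3 CPM in tail T3 and 47.2, 44.7 and 44.5 CPM in tail control, against 10.1, 10.6 and 8.43 CPM in intestine T3 and 18.97, 17.9 and 18.9 CPM in intestine control. It too moved in opposite directions without overlap, with an organ difference of 2.34 ± 0.09 (edgeR adjusted p = 9.73e-10). The cornified envelope gene cnfn.1 rose by 3.71 in tail and fell by 0.70 in intestine, and lamb3, a laminin chain of epithelial basement membranes, rose by 0.81 and fell by 1.18.

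A second kind of upward difference came from genes that fell in intestine and moved less in tail. The kinase gene braf of the MAP kinase pathway, on chromosome 3 from 5502535 to 5558657 (minus strand), stood at 29.5, 28.4 and 28.9 CPM in tail T3 and 30.9, 29.4 and 30.4 CPM in tail control, against 25.4, 23.3 and 22.4 CPM in intestine T3 and 211.3, 208.9 and 215.2 CPM in intestine control. The intestine controls alone stood high, and the other 9 libraries lay within 22.4 to 30.9 CPM, which gave an organ difference of 3.10 ± 0.07 (edgeR adjusted p = 1.2e-11). The myosin chaperone gene unc45b stood at 39.1, 41.0 and 39.8 CPM in tail T3 and 38.2, 37.4 and 38.8 CPM in tail control, against 0.960, 0.840 and 1.04 CPM in intestine T3 and 12.1, 10.3 and 10.7 CPM in intestine control. Its difference was 3.63 ± 0.13. The tetraspanin tspan1 (2.35) also fell further in intestine than in tail. So did the fucosyltransferase gene fut6 (2.61), rnf223 (3.11), the oxidase organiser noxo1.1 (3.45) and the peptidoglycan recognition gene pglyrp1 (3.91). The tail counts of fut6, rnf223, noxo1.1 and pglyrp1 were lower with T3 as well. Summed intestine T3 counts were 46 for unc45b and 48 for noxo1.1, under 1 CPM of library total in the mean. Both passed in intestine through the controls alone, and a fall there was a condition of entry. The protease gene prtn3 was the reverse case, rising by 2.37 in tail with no change called in intestine (0.06) and an organ difference of 2.32.

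The plasma iron carrier gene tf gave the counterpart among downward differences. It lies on chromosome 5 from 129970325 to 129991089 (plus strand) and stood at 38.7, 40.0 and 37.5 CPM in tail T3 and 50.01, 52.4 and 51.3 CPM in tail control, against 774.9, 772.7 and 891.3 CPM in intestine T3 and 36.5, 36.4 and 37.9 CPM in intestine control. The intestine T3 libraries alone stood high, and the organ difference was -4.86 ± 0.09 (edgeR adjusted p = 2.1e-12). The haem carrier gene hpx rose in both organs, by 2.31 in tail and 6.84 in intestine, a difference of -4.54 ± 0.33. Its control means were 0.770 CPM in tail and 0.822 CPM in intestine. It thus passed the filter in both organs through the T3 libraries alone, and a rise in each was a condition of entry.

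**Figure D4:**
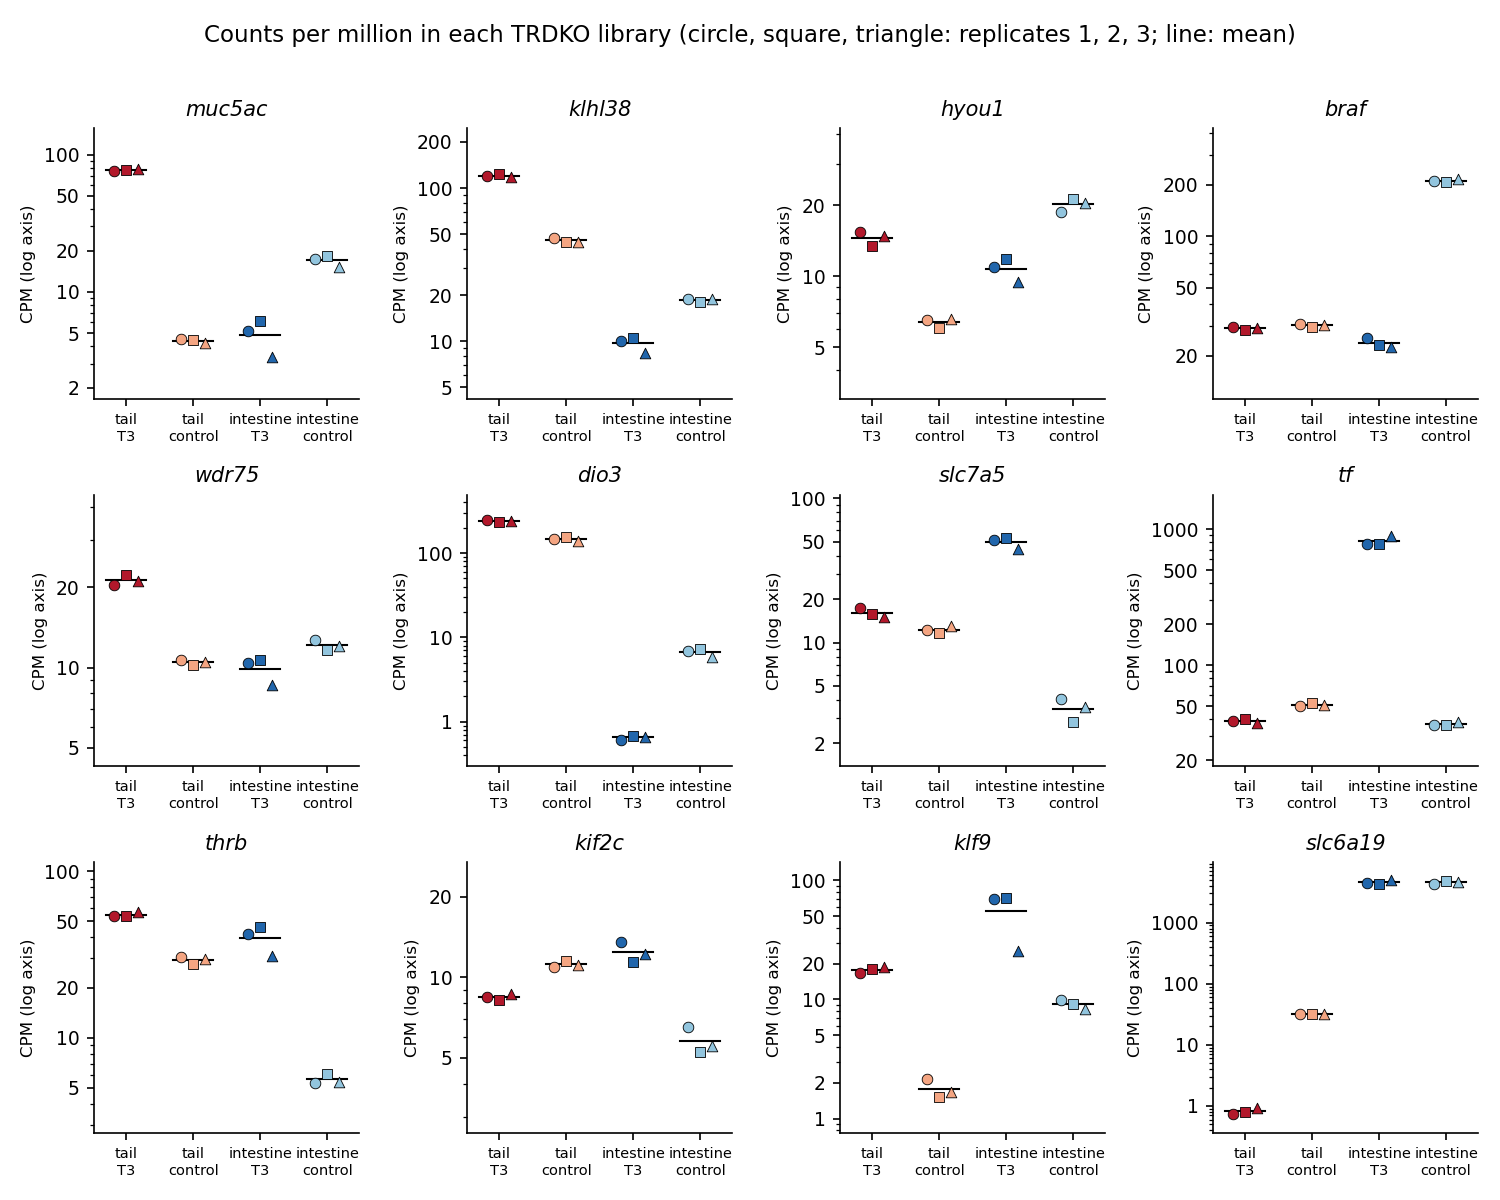
CPM on a log axis in each TRDKO library for 12 genes, by group from left to right: tail T3, tail control, intestine T3 and intestine control. Symbols are replicates 1 to 3 and the line is the mean; klhl38 and hyou1 cross between organs, tf and slc7a5 stand high in intestine T3, braf in intestine control, and intestine T3 replicate 3 (triangle) is low for klf9.

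Many of the largest downward differences belonged to genes of the absorptive intestinal cell, and these came with a level in tail that was a small share of the level in intestine. Of 31 tested enterocyte markers 26 were called downward and 0 upward, 83.9% against 33.3% of all genes, with a median of -3.46. Without TRDKO intestine T3 replicate 3, 2 were called upward and 27 downward, 93.5% against 53.4%. With all libraries 27 fell and 1 rose in tail (median change -3.0), and in intestine 21 rose and 5 fell (median change 0.33). The shares called were 90.3% and 83.9%, against 35.4% and 43.6% of all genes. The amino acid transporter gene slc6a19 stood at 0.729, 0.809 and 0.915 CPM in tail T3 and 31.6, 31.7 and 32.3 CPM in tail control, against 4446, 4289 and 4910 CPM in intestine T3 and 4287, 4751 and 4709 CPM in intestine control. Its intestine libraries overlapped and the organ difference of -5.27 ± 0.15 arose in tail. All tail T3 libraries lay under 1 CPM, so slc6a19 passed the tail filter through the controls alone. A fall there was a condition of entry. The bile acid carrier fabp6 (-7.17), the monocarboxylate transporter slc5a12 (-5.31), the sphingomyelinase enpp7 (-5.21), the brush border cadherin cdhr5 (-4.71) and the phosphate transporter slc34a3 (-4.58) also fell in tail, where their level was a small share of that in intestine. Summed tail T3 counts of fabp6, slc5a12, enpp7 and cdhr5 were 8, 28, 16 and 21. These genes too passed in tail through the controls alone, and a fall there was a condition of entry. Of the 31 markers, 10 passed the expression filter in tail through the control libraries alone, so they could enter only with a higher control level, and the count above describes the list and is read no further.

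Summed over the 38 enterocyte markers in the table, the level was 213.0 to 219.4 CPM in tail T3 and 630.1 to 640.1 CPM in tail control, against 84040 to 89350 CPM in intestine T3 and 63740 to 68280 CPM in intestine control. At 0 counts in all 3 libraries were 1 of the 38 in tail T3, 0 in tail control and 1 in each intestine group. The median marker stood in tail T3 at 0.0692% of its intestine T3 level and in tail control at 0.614% of its intestine control level. Exocrine pancreas markers, 27 in the table, summed to 14.9 to 15.3 CPM in tail T3 and 134.3 to 145.7 CPM in tail control, against 402.0 to 515.6 CPM in intestine T3 and 9830 to 10480 CPM in intestine control. At 0 in all 3 libraries were 7 of them in tail T3, 5 in tail control, 6 in intestine T3 and 2 in intestine control. On a scale fitted over all 24 libraries, WT tail had enterocyte sums of 161.8 CPM with T3 and 120.7 CPM in control, where TRDKO tail had 207.3 and 608.1 CPM. All 3 TRDKO tail control libraries thus carried more of these transcripts than any other tail library, and the part of that in the differences of these genes was not tested.

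Genes outside the marker lists with such levels were counted too. Of 163 genes whose tail level was under 1% of the intestine level, 151 were called downward and 9 upward, 98.2% against 33.3% of all genes. Of the 163, 116 had passed the filter in tail through the controls alone. Their median tail T3 level was 0.0491% of the intestine T3 level and their median tail control level 0.526% of the intestine control level. The 12198 genes with levels within 10-fold of each other in the organs had 1753 upward and 2037 downward calls, 31.1% of these genes, close to the share over all genes. The plot of T3 change by relative level shows both.

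**Figure D5:**
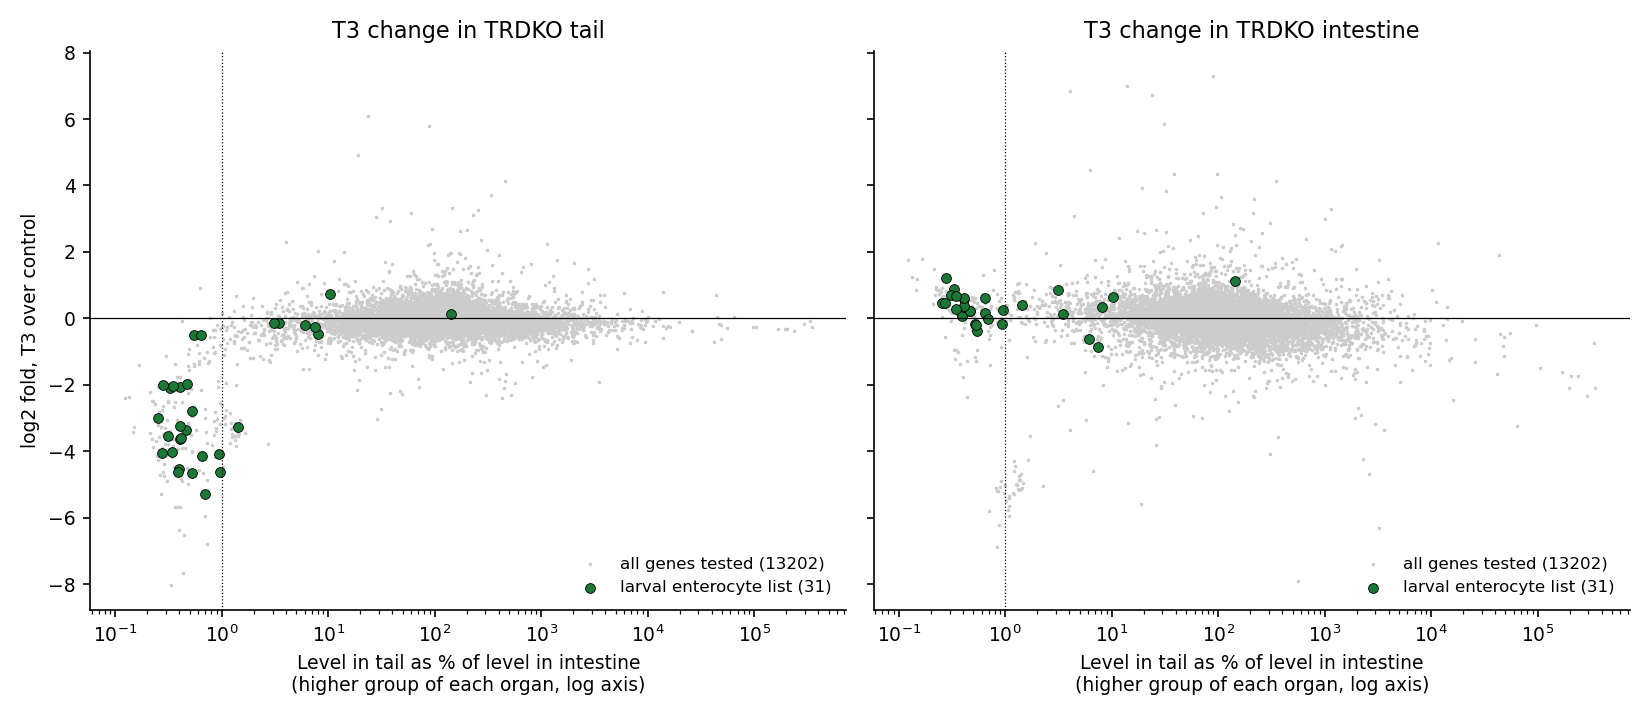
Log2 fold change of T3 over control in TRDKO tail (left) and TRDKO intestine (right) against the level in tail as a percent of the level in intestine (log axis), 1 grey point for each of 13202 genes, with the 31 tested enterocyte genes in green and a dotted line at 1%. Left of that line most of the 163 genes lie far below 0 in tail and near 0 in intestine, with medians of -3.18 in tail and 0.26 in intestine.

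Most tested pancreas enzyme genes had lower levels with T3 in both organs. In tail 11 of 12 tested genes fell (median change -3.38) and in intestine 11 fell (median change -4.71). Each was 91.7% of the list, against 35.4% of all genes called in tail and 43.6% in intestine. Between organs 10 differed upward, the fall being larger in intestine, 83.3% against 33.3% of all genes. Without TRDKO intestine T3 replicate 3, 10 differed upward and 0 downward, 83.3% against 53.4%. The carboxypeptidase gene cpa1 stood at 1.46, 1.89 and 1.83 CPM in tail T3 and 20.4, 22.4 and 19.3 CPM in tail control, against 73.9, 68.2 and 91.8 CPM in intestine T3 and 1595, 1707 and 1723 CPM in intestine control. Every control library lay above every T3 library of its organ. Of these 12 genes 5 passed in tail through the control libraries alone and 1 in intestine likewise. Those could enter only with a higher control level, and the counts above describe the list and are read no further.

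Among listed liver genes, mostly of plasma proteins but also of enzymes such as arg1, fah and tat, most called changes were falls in tail and rises in intestine. Of 20 tested genes 14 differed downward and 2 upward, 80.0% against 33.3% of all genes, with a median of -2.0. Without TRDKO intestine T3 replicate 3, 3 differed upward and 14 downward, 85.0% against 53.4%. With all libraries 10 fell and 4 rose in tail, and in intestine 14 rose and 1 fell (15 and 2 without that library). Of the 20 genes 4 passed the filter in intestine through the T3 libraries alone and 1 in tail likewise, so they could enter only with a higher T3 level, and the counts describe the list and are read no further. The albumin gene alb stood at 6.11, 5.63 and 6.03 CPM in tail T3 and 29.8, 27.1 and 30.2 CPM in tail control, against 5.22, 4.20 and 7.39 CPM in intestine T3 and 2.57, 2.79 and 3.15 CPM in intestine control. It fell in tail and rose in intestine without overlap, with an organ difference of -3.24 ± 0.22. The lipid carriers apoa4 (-3.23), an enterocyte marker outside this list, and apob (-2.99) also moved in opposite directions. Their tail control levels were 0.656% and 0.610% of their intestine control levels. The hepatocyte markers in the table summed to 1290 CPM in tail T3 and 1532 CPM in tail control, against 19350 CPM in intestine T3 and 12220 CPM in intestine control (means, n = 3 each). The intestine T3 sum was carried by apoa1 (7819 CPM) and apob (5816 CPM), which are also enterocyte genes, and by c3 (2342 CPM) and cfb (1392 CPM), while alb averaged 5.605 CPM there. In tail T3 the enzyme genes tat (248.9 CPM) and fah (167.7 CPM) were part of the sum, while alb averaged 5.92 CPM. The part of liver cells in these sums was not tested.

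Large differences also occurred among genes with similar levels in the organs, a subset chosen after the values were seen. The methionine sulfoxide reductase gene msrb2 stood at 13.7, 14.1 and 13.9 CPM in tail T3 and 21.5, 22.4 and 21.9 CPM in tail control, against 32.4, 28.4 and 29.6 CPM in intestine T3 and 3.16, 3.53 and 3.46 CPM in intestine control. It fell in tail and rose in intestine, a difference of -3.81 ± 0.10. The Wnt receptor fzd8 did likewise (-2.79), and the glucose-6-phosphatase gene g6pc.3 rose in intestine by 2.67 with no change called in tail (-0.02). The secreted chaperone clusterin, clu, rose in both organs, by 1.60 in tail and 4.13 in intestine, as did nrep, by 1.00 against 3.35. In the other direction the growth factor-binding gene fgfbp1 rose by 0.44 in tail and fell by 1.60 in intestine.

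Among smooth muscle and matrix genes, more of the called differences were upward than downward. Of 15 tested smooth muscle genes 10 differed upward and 0 downward (median 0.40), 66.7% against 33.3% of all genes. Without TRDKO intestine T3 replicate 3, 12 differed upward and 1 downward, 86.7% against 53.4%. In tail 5 fell and 0 rose (9 and 4 without that library), and in intestine 14 fell and 0 rose with and without it. The tail share of 33.3% lay near the 35.4% of all genes, and was 86.7% against 56.5% without that library. In intestine 93.3% were called in each fit, against 43.6% and 62.6% of all genes. Of the 10 called genes 1, pdlim3, had a called fall in tail, and 5 had a tail change above 0 that did not pass. Filamin gene flna stood at 1384, 1386 and 1393 CPM in tail T3 and 1222, 1178 and 1208 CPM in tail control, against 485.7, 486.2 and 362.0 CPM in intestine T3 and 681.0, 665.7 and 677.9 CPM in intestine control. It fell by 0.60 in intestine, its tail change of 0.21 did not pass, and intestine T3 replicate 3 was its lowest value. Of 38 collagen and matrix genes 25 fell in each organ. A change in either direction was called at 71.1% in tail and 78.9% in intestine, against 35.4% and 43.6% of all genes. The organ difference was called upward at 16 and downward at 5 (median 0.21), 55.3% against 33.3% of all genes. Without the same library it was called upward at 21 and downward at 6, 71.1% against 53.4%. The collagen chain gene col6a3 fell by 0.24 in tail and 1.13 in intestine. Skeletal muscle genes, 12 of 40 in the table tested, had 7 upward calls and 0 downward, with and without the same library. The share called was 58.3% in each fit, against 33.3% and 53.4% of all genes. Of the 7 called genes 4 had a called fall in tail and 0 had a tail change above 0, so the fall was larger in intestine. The called gene tpm2 is in both muscle lists, with intestine means of 700.6 CPM with T3 and 1216 CPM in control. The 2 lists are thus not separate. Intestine levels could be near the filter, as for actn3 at 0.226 CPM with T3 and 1.15 CPM in control. In intestine actn3 thus passed through the controls alone, and a fall there was a condition of entry. The muscle actin gene acta1 stood at 0.06003 to 0.586 CPM in intestine.

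The ubiquitin ligase gene fbxo32, linked to muscle wasting in mammals, stood at 330.4, 332.9 and 333.6 CPM in tail T3 and 93.6, 93.1 and 93.4 CPM in tail control, against 172.2, 179.1 and 165.4 CPM in intestine T3 and 113.2, 112.6 and 112.5 CPM in intestine control. It rose in both organs and more in tail, a difference of 1.22 ± 0.05 (edgeR adjusted p = 3.52e-09). The proteasome activator gene psme4 rose by 1.35 in tail and 0.32 in intestine. Proteasome subunits as a list gave 3 upward and 3 downward calls of 39, 15.4% against 33.3% of all genes. Without TRDKO intestine T3 replicate 3 they gave 27 upward and 3 downward, 76.9% against 53.4%. The apoptosome gene apaf1 rose in tail by 0.93 and fell in intestine by 0.23. The pro-death gene bcl2l11 and the cell cycle inhibitor cdkn1a rose in both organs and more in intestine (differences -1.15 and -1.11), as did the mitophagy receptor bnip3 (-1.34) and the autophagy kinase ulk1 (-1.11). Of 35 apoptosis genes 5 differed upward and 4 downward, 25.7% against 33.3% of all genes, and 13 upward and 5 downward without TRDKO intestine T3 replicate 3, 51.4% against 53.4%, so neither share stood above that of all genes.

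For genes that changed in both organs with no organ difference called, the interval of the organ difference bounds how far apart the organs could be. The reticulophagy receptor gene retreg1 stood at 127.8, 129.1 and 133.4 CPM in tail T3 and 63.8, 62.7 and 66.7 CPM in tail control, against 59.0, 57.3 and 53.2 CPM in intestine T3 and 26.6, 29.7 and 27.98 CPM in intestine control. It rose by 1.01 in each organ, and the 95% interval of the difference ran from -0.17 to 0.17. The cytokine feedback gene socs3l rose by 1.30 in tail and 1.44 in intestine (interval -0.40 to 0.11), and the kinase gene pim3 by 1.38 and 1.58 (-0.61 to 0.21). The largest shared rise was that of avd, a gene named for avidin, a biotin-binding protein in birds, by 6.10 in tail and 6.73 in intestine, with a wide interval of -1.97 to 0.71. The factor gene zbtb16, a corticosteroid target in mammals, rose by 2.67 and 2.34 (-0.24 to 0.91). Among shared falls were the globin genes hba2 and hba4 and the protease gene tmprss11f, which fell by 1.57, 1.02 and 1.23 in tail and by 1.56, 0.85 and 1.16 in intestine. The organ difference of hba2 was within -0.35 to 0.35 with all libraries and was called at 0.29 without TRDKO intestine T3 replicate 3 (edgeR adjusted p = 2.52e-05).

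The organ difference of TRDKO was also set against that of WT, using 23 samples because the counts of WT tail control replicates 1 and 3 could not be told from sampling noise (mean chi-square per gene 1.01, p = 0.1255), and they were summed and counted as 1 sample. Both comparisons contain the TRDKO libraries, so their calls are not independent. The difference between genotypes was called at 6200 genes (47.0%), higher in TRDKO at 2761 (20.9%) and lower at 3439 (26%). Without TRDKO intestine T3 replicate 3 it was called at 7717 genes (58.5%), higher at 4265 (32.3%) and lower at 3452 (26.1%). Mitosis genes had a median organ difference of -1.0 in TRDKO and 0.91 in WT, where the median change was 0.71 in tail and -0.19 in intestine. The genotype difference was lower in TRDKO at 49 and higher at 0 of the 52, with and without TRDKO intestine T3 replicate 3. Ribosome biogenesis genes had medians of 0.54 in TRDKO and -0.10 in WT, higher in TRDKO at 38 and lower at 1 of 59 (53 and 0 without that library). Unfolded protein response genes had medians of 0.33 in TRDKO and -0.15 in WT, higher at 20 and lower at 2 of 31 (24 and 3 without it). Known T3 response genes had medians of -0.34 in TRDKO and -1.11 in WT, higher at 9 and lower at 3 of 21 (11 and 4 without it).

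Single genes are given as levels on the scale fitted over all 24 libraries. For klhl38 the WT means were 106.7 CPM in tail T3 and 156.3 CPM in tail control, against 17.5 CPM in intestine T3 and 10.2 CPM in intestine control. The organ difference was 2.34 in TRDKO and -1.31 in WT, and the genotypes differed by 3.65 ± 0.12. The gene hyou1 gave 2.09 in TRDKO and -1.19 in WT, a genotype difference of 3.27 ± 0.15. For tf the values were -4.86 in TRDKO and 1.14 in WT, and for braf 3.10 and -0.75. The transporter slc7a5 had -3.43 in TRDKO and -3.65 in WT, with no genotype difference called (0.22 ± 0.20, edgeR adjusted p = 0.385). The T3 targets thrb (-1.93 and -1.38) and thibz (-1.51 and -1.40) were likewise not called between genotypes, thrb narrowly (edgeR adjusted p = 0.0556). The T3 target klf9, at 0.70 in TRDKO and -1.65 in WT, was called (2.34 ± 0.64, edgeR adjusted p = 0.00533). The largest genotype differences were mostly of pancreas and enterocyte genes with few WT counts. The elastase gene cela1.5 had 126 and 1389 counts in TRDKO tail T3 and tail control and 2862 and 91508 in TRDKO intestine T3 and intestine control, against 0, 2, 14763 and 17 in the same WT groups.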

How the data were processed

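RNA from tail or intestine was made into stranded total-RNA libraries, per the labels' protocols. The deposited values are whole-number read counts per gene that the authors made with featureCounts of Subread 2.0.1 (reverse-stranded, paired, primary alignments, duplicates dropped, build XENTR_10.0), per the file headers, after cutadapt 3.2 and STAR 2.7.7a, per the submitters' processing notes. Counts in the kept genes were 87.2% to 97.8% of each library, and dropping duplicates can lower highly expressed genes. Differences were tested with edgeR 4.0.16 (TMM scaling, robust quasi-likelihood F test, R 4.3.3) and adjusted by Benjamini-Hochberg over 13202 genes, at a threshold of 0.05; intervals and SEs come from that fit. The procedure was tested on simulated data. DESeq2 1.42.0 and limma 3.58.1 were alternatives, and figures used matplotlib 3.10.9.

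Named genes were thra and thrb, the 12 largest differences in each direction with CPM of at least 5 in each organ that held without TRDKO intestine T3 replicate 3, the 6 largest per orientation among opposite and among shared changes, up to 2 per direction in each of 36 lists, all known T3 response genes, and the 5 largest genotype differences per direction. Other genes named (such as hspa5, cdk1, fbl, ncl, npm1, arntl, cdc45, c3 and those with similar levels) were added after their values were seen. Members and lists were chosen with earlier results of these data known.

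The median correlation of same-numbered libraries of different groups was -0.01, which cannot show whether they shared animals. Promoter and protein sequences were not used here.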

Additional observations from a re-analysis of the deposited data

Results flagged for a closer look

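The T3 change differed between TRDKO tail and TRDKO intestine at 4394 genes, and the organ difference itself differed between TRDKO and WT at 6200 genes, by tests of the difference in edgeR.

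Single genes were picked out where tail and intestine changed in opposite directions in TRDKO. The organ difference was 5.89 log2 for muc5ac, 2.34 for klhl38, 2.09 for hyou1, 1.79 for manf, 1.99 for lamb3 and 1.59 for ero1a, all higher with T3 in tail and lower with T3 in intestine. It was -3.23 for apoa4, -3.24 for alb, -4.58 for slc34a3, -2.99 for apob, -1.53 for cyp4f2 and -1.54 for susd2, all lower with T3 in tail and higher with T3 in intestine. Summed tail T3 and tail control counts were 96 and 336 for apoa4, 83 and 903 for slc34a3, and 340 and 1258 for apob. In intestine they were 88510 and 45371, 299934 and 185531, and 291149 and 182369. The part of the enterocyte transcripts seen in tail controls was not tested.

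The genotype difference of the organ difference was 9.21 log2 for pglyrp1, whose summed counts in tail T3, tail control, intestine T3 and intestine control were 194, 373, 363 and 14431 in TRDKO and 56, 31, 1717 and 24 in WT. It was -7.94 for cyp24a1, with 244, 332, 319 and 170 counts in TRDKO and 100, 86, 118 and 7227 in WT. The cause was not tested.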

How the results depend on the processing

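The number of genes with an organ difference was 3756 to 7048 when 1 library was left out, the highest without TRDKO intestine T3 replicate 3, and 3538 to 5401 under other settings. Leaving out 1 library gave 1650 to 3946 genes more upward and 1638 to 3102 more downward in tail, 195 to 866 that rose in tail and fell in intestine, 373 to 866 that fell in tail and rose in intestine, 986 to 1794 shared changes, and 306 to 424 upward and 430 to 490 downward by at least 2-fold. Library totals alone gave 3882 upward and 1278 downward, 528 upward by at least 2-fold, and 685 and 287 in the opposite classes. At least 2-fold differences numbered 142 upward and 250 downward at a mean CPM of 5, 491 and 762 with no filter, 484 and 762 with filterByExpr, and 272 downward among genes at 10% to 10-fold levels, a set chosen after seeing the data. These filters change which genes are tested, and the cause of the other moves was not tested. With 1 library left out, genotype differences numbered 5828 to 7717, with 2639 to 4265 higher and 2684 to 3452 lower in TRDKO. Under other settings they numbered 6189 to 6380, with 2751 to 3093 higher and 3096 to 3605 lower. No gene whose organ difference was called both in the main fit and under another setting changed sign. The difference of hba2, not called with all libraries, turned to 0.29 without TRDKO intestine T3 replicate 3, and lay between -0.034 and 0.29 when each library was left out. Same-numbered libraries had correlations of -0.34 to 0.21 over 18 pairs, and a replicate block gave 4095 calls. These correlations cannot show whether tail and intestine came from the same animals. The spread of that 1 library limits small intestine changes.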

Other observations

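Erythrocyte, macrophage and granulocyte markers moved in both organs, and lymphocyte markers were called in tail alone with all libraries. The shares called are given beside those of all genes (33.3% for the organ difference, 35.4% for T3 in tail and 43.6% for T3 in intestine). Of 16 tested erythrocyte genes 14 fell and 0 rose in tail (87.5% called), and 11 fell and 1 rose in intestine (75%). Organ differences were called upward at 2 and downward at 4 of them, 37.5% and near the share of all genes, and at 5 and 4 without TRDKO intestine T3 replicate 3 (56.2% against 53.4%). Of 23 macrophage and granulocyte genes 11 rose and 1 fell in tail (52.2%), and 13 rose and 2 fell in intestine (65.2%), with 6 upward and 7 downward organ differences (56.5%). Without that library 18 rose and 1 fell in tail (82.6% against 56.5% of all genes). The organ differences were then 7 upward and 7 downward (60.9% against 53.4%). Of 27 cholesterol genes 0 rose and 11 fell in tail (40.7%), and 5 rose and 18 fell in intestine (85.2%), with 8 upward and 7 downward organ differences (55.6%). Without that library 4 rose and 12 fell in tail (59.3% against 56.5%), and the organ differences were 16 upward and 7 downward (85.2% against 53.4%).

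The albumin gene alb had 450, 1919, 267 and 165 counts summed over the libraries of tail T3, tail control, intestine T3 and intestine control in TRDKO, and 0 counts in each WT group. Exocrine pancreas markers, on the scale over all 24 libraries, averaged 425.4 CPM in intestine T3 and 9847 CPM in intestine control of TRDKO, against 1663 CPM and 64.2 CPM in the same groups of WT. The cause was not tested.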
